A study of Mus musculus with 7 samples.

Results

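Induced pluripotent stem (iPS) cell lines made with Oct4 were compared with the mouse embryonic fibroblasts (MEFs) that stand as their starting cells, on 5 of the 7 arrays of the series. The members were chosen by their labels alone: iPS lines O4-1, O4-2 and O4-4 grown in the medium labelled KSR (3 arrays, 1 per line), MEFs grown in FBS (1 array) and MEFs grown in the medium labelled iCD1 (1 array). The MEFs came from 13.5 dpc embryos of 129/OG2 mice, a background that carries a GFP reporter of Oct4. The lines are MEFs that received Oct4 as the only factor named, and every group descends from fibroblasts, so no array of unrelated pluripotent cells enters here. Total RNA was read on Affymetrix whole-transcript arrays, and each value is a log2 expression level per probe set. The labels do not spell out KSR or iCD1, and give the lines no strain of their own. The description of every sample, MEFs included, speaks of iPS cells at day 3 after infection, and the source field of the iPS samples names iCD1, to which the growth protocol refers for the medium, whereas titles and growth conditions name KSR. Titles and growth conditions were followed. No MEF array was in KSR, so cell type and medium cannot be told apart in any difference given here. The sources used here do not say whether feeder fibroblasts were present in the KSR cultures.

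Oct4, encoded by Pou5f1, is a POU-domain transcription factor that works together with Sox2 and Nanog to keep the pluripotent state, and its forced expression can help to return a differentiated cell to that state. On the way a fibroblast loses its mesenchymal regulators, its secreted matrix and its adhesion to that matrix, and takes on the junctions of an epithelial cell. Pluripotent cells also divide with a short G1 phase and are known for high output of ribosomes, nucleotides and replication proteins.

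A probe set with exactly 1 gene symbol, the one with the highest mean over the 7 arrays, stood for each of 19938 genes. Array medians lay between 4.97 and 5.03. A gene is said to rise or fall where limma's adjusted p, over all 19938 genes, was under 0.05 for the lines against the average of the MEF arrays, and to hold where it also passed with the same sign against the FBS array alone and against the iCD1 array alone. These comparisons share the KSR arrays. The 3 lines supplied the 2 residual degrees of freedom, a MEF array was assumed to vary like a line, and the p-values measure the spread between lines, which the labels do not describe as separate derivations. Precision is limited by how few arrays there are.

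The labels fit the defining genes. All 12 markers of pluripotent cells lay above both MEF arrays in all 3 lines, against 25.6% of all genes. Their mean level was 4.40 (FBS) and 4.42 (iCD1) in MEFs and 9.77, 9.53 and 9.67 in O4-1, O4-2 and O4-4. The 16 fibroblast markers had mean levels of 9.29 and 9.83 in the MEF arrays and 6.83, 6.82 and 7.23 in the lines. Of these 13 fell (8 held), and Dcn, Lum and Postn were not called. In all lines 14 of the 16 lay below both MEF arrays, against 26.0% of all genes. The level left in the lines differed between fibroblast genes. The vimentin gene Vim stood at 9.73, 9.74 and 9.73 in them against 11.94 and 12.04 in MEFs. Fap stood at 3.22, 3.0 and 3.53 against 4.35 and 6.22. The collagen gene Col1a1 stood at 9.17, 9.21 and 10.32 against 12.61 and 12.45, with O4-4 the highest line. In bulk RNA fewer cells of a type and less RNA per cell cannot be told apart, and the part of remaining or feeder fibroblasts in these levels was not tested.

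Over 8 marker lists of other cell types 5 of 68 measured markers rose (7.35%, against 12.1% of all genes) and 10 fell (14.7%, against 14.3%). None of 5 erythroid and none of 7 keratinocyte markers was called by limma. In the erythroid list 0 markers lay above both or below both MEF arrays in all lines, against 25.6% and 26.0% of all genes. By contrast 8 of 10 muscle and 8 of 12 macrophage markers lay below both in all lines, and 0 of either list above both. Of 12 macrophage markers 2 fell, Csf1r by 0.63 and Cd14 by 0.73, with list means of 4.56 and 4.64 in MEFs and 4.12 to 4.25 in the lines, and of 10 muscle markers Myh3 and Tnnt2 fell, a count of 2 that became 4 under quantile normalization and 5 with trend and robust settings. The neural marker Map2 fell by 1.53 ± 0.22 (SE; limma, adjusted p = 0.0204). Among 9 endothelial markers Tek and Pecam1 rose and held, Pecam1 from 4.14 and 3.89 to 7.47, 7.20 and 8.09. Kdr and Cdh5 fell and did not hold. Cdh5 differed by -0.05 ± 0.11 from the FBS array and by -0.97 ± 0.11 from the iCD1 array. Among 8 trophoblast markers Eomes and Tfap2c rose and Plac1 fell, and the trophoblast factor Cdx2 differed by 0.08 ± 0.10 (limma, adjusted p = 0.649). Of 10 primitive endoderm markers Lama1 rose and Dab2 and Gata6 fell, and Sox17, Gata4, Foxa2 and Sox7 did not pass.

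The switch reached 5260 of 19938 genes in limma. In the lines 2415 genes were higher (12.1% of those tested) and 2845 lower (14.3%). Against MEFs in FBS alone 2968 genes were called (14.9%), and against MEFs in iCD1 alone 3947 (19.8%). The change held against each array for 1125 higher genes (5.64%) and 1399 lower genes (7.02%). Without any test, 5101 genes (25.6%) were above both MEF arrays in all 3 lines and 5182 (26.0%) below both. Limma called 0 genes without O4-1 or without O4-2, and without O4-4 it called 1207 higher and 1569 lower against the mean and 0 against either array alone. These fits had 1 residual degree of freedom, and the differences themselves moved little: the median of the pluripotent markers was 4.67, 4.93 and 4.80 without O4-1, O4-2 and O4-4 against 4.72 with all lines, and that of the fibroblast markers -2.51, -2.47 and -2.60 against -2.61. With the MEF arrays taken as 2 samples of 1 group, limma called 2712 higher and 2967 lower, and 1486 to 2263 higher and 1636 to 2372 lower when a line was left out, the lowest counts being those without O4-1.

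More genes were called lower than higher, an order that turned with a filter on low values (2599 higher and 2483 lower of 9969 genes, and 1602 and 1525 against each MEF array). The largest differences were upward. A mean difference of at least 1 log2 unit was seen for 1482 genes upward and 1886 downward, and one of at least 2 for 325 upward and 511 downward. At 3 log2 units the order turned, with 123 upward against 110 downward, and at 4 units it was 45 against 8. Differences of 5 units or more were found for 17 genes, all upward. Genes that held went, at the median, from a MEF mean of 6.15 to a KSR mean of 7.71 when they rose (median difference 1.35), and from 7.44 to 5.61 when they fell (median difference -1.62). The largest difference each way was 8.97 and -4.52.

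**Figure D1:**
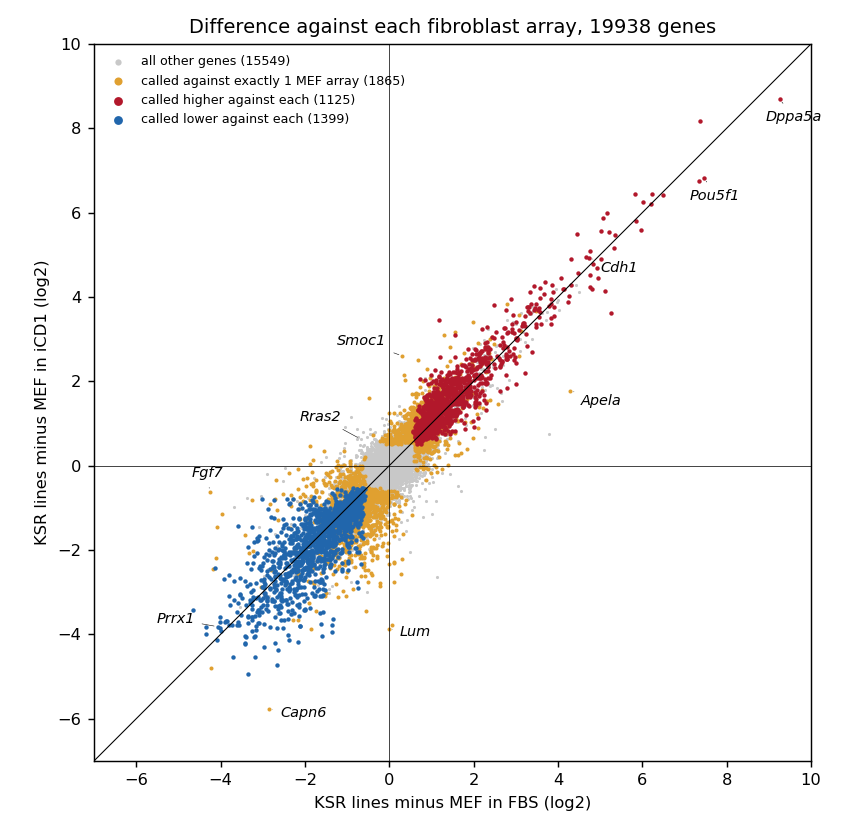
Each point is 1 of 19938 genes, at its difference between the mean of the 3 KSR lines and the MEF array in FBS (horizontal, log2) and the MEF array in iCD1 (vertical, log2). Red and blue points, 1125 higher and 1399 lower genes, were called by limma against each MEF array, orange points against exactly 1, grey points are all others, and the diagonal marks equal differences. Upward differences extend past 8 log2 units whereas none goes below -6.

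The genes that stood farthest from both MEF arrays in every line were led by Dppa5a, which encodes an RNA-binding protein of pluripotent cells. It stood at 3.23 and 3.80 in MEFs in FBS and iCD1 and at 12.48, 12.33 and 12.65 in O4-1, O4-2 and O4-4. The 3 lines lay within 0.32 of each other and at least 8.54 above either MEF array. Dppa5a differed by 9.26 ± 0.17 from the FBS array and by 8.69 ± 0.17 from the iCD1 array (SE; limma, adjusted p = 0.0165 and 0.0123).

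Pou5f1 had a smallest gap of 6.57 over the 6 pairs of a line and a MEF array. Its values were 3.40 and 4.04 in the MEFs and 10.99, 10.99 and 10.61 in the lines, and whether its probe set also reads the introduced Oct4 was not tested. Tdgf1, the gene of the Nodal co-receptor Cripto, stood at 4.14 and 3.35 against 11.56, 11.75 and 11.23. In neither gene did the groups come near each other.

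Of the other 17 rises that lead this order, several are known genes of the early embryo or germline. Dppa2, Nr0b1, Fbxo15, Sox2 and Nanog are long-standing markers of pluripotent cells, and Tdrd12 encodes a tudor protein of the piRNA pathway. Tdrd12 went from 3.23 and 3.42 to 8.82, 8.24 and 8.68. Usp26, an X-linked ubiquitin protease gene known from the testis, went from 3.23 and 3.11 to 9.20, 7.98 and 8.57. Both kept a gap of more than 4.7 units between every line and both MEF arrays.

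Metabolic and adhesion genes also stood in that order. Pla2g1b, a secreted phospholipase A2 gene, went from 5.05 and 4.50 to 10.12, 9.87 and 10.23, a difference of 5.30 ± 0.15 (SE; limma, adjusted p = 0.00659). Rimklb, whose product joins glutamate to N-acetylaspartate, had values of 8.44, 8.34 and 8.28 in the lines against 3.44 and 3.67, and differed by 4.80 ± 0.10. Bex4 rose by 5.47 ± 0.11. The remaining leading rises were Cdh1, the long non-coding RNA gene Lncenc1, Fam169a, the zinc finger genes Zfp980, Zfp640 and Zfp600 and the predicted gene Gm6083. The zinc finger genes have close copies, so their probe sets may read more than 1 gene.

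The genes with the widest gap downward encode regulators, secreted ligands and membrane proteins. Prrx1, a homeobox factor of limb and connective tissue mesenchyme, stood at 10.14 and 9.88 in MEFs and 5.87, 6.16 and 6.16 in the lines, and fell by 3.94 ± 0.14 (SE; limma, adjusted p = 0.00659). Tgfb3, a TGF-beta ligand gene, went from 8.19 and 8.22 to 4.15, 4.58 and 4.63. The lines lay at least 3.72 below either MEF array for Prrx1 and 3.56 for Tgfb3.

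The annexin genes Anxa5 and Anxa1, whose products bind membranes in the presence of calcium, fell by 4.11 ± 0.28 and 3.81 ± 0.28. Sema3a and its receptor gene Nrp1 fell together, Nrp1 from 9.40 and 8.17 to 4.65, 4.78 and 4.82. Slc25a24, a mitochondrial ATP-Mg carrier gene, went from 8.87 and 9.05 to 5.11, 5.45 and 5.25, and fell by 3.69 ± 0.14. Igf2, a fetal growth factor gene, went from 10.95 and 10.97 to 7.34, 7.27 and 7.66. The other leading falls were Pcdh18, Aspn, Ptn, Igfbp5, Cd109, Nsg1, Tbc1d8b, Dpysl3, Cav1, Tnc, Cpe and Tgfbi, with differences from -3.35 (Cav1) to -4.18 (Tnc). Of these Tnc varied most among the lines, at 6.17, 6.95 and 5.29, and its adjusted p against the FBS and iCD1 arrays was 0.0417 and 0.0406 in limma.

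**Figure D2:**
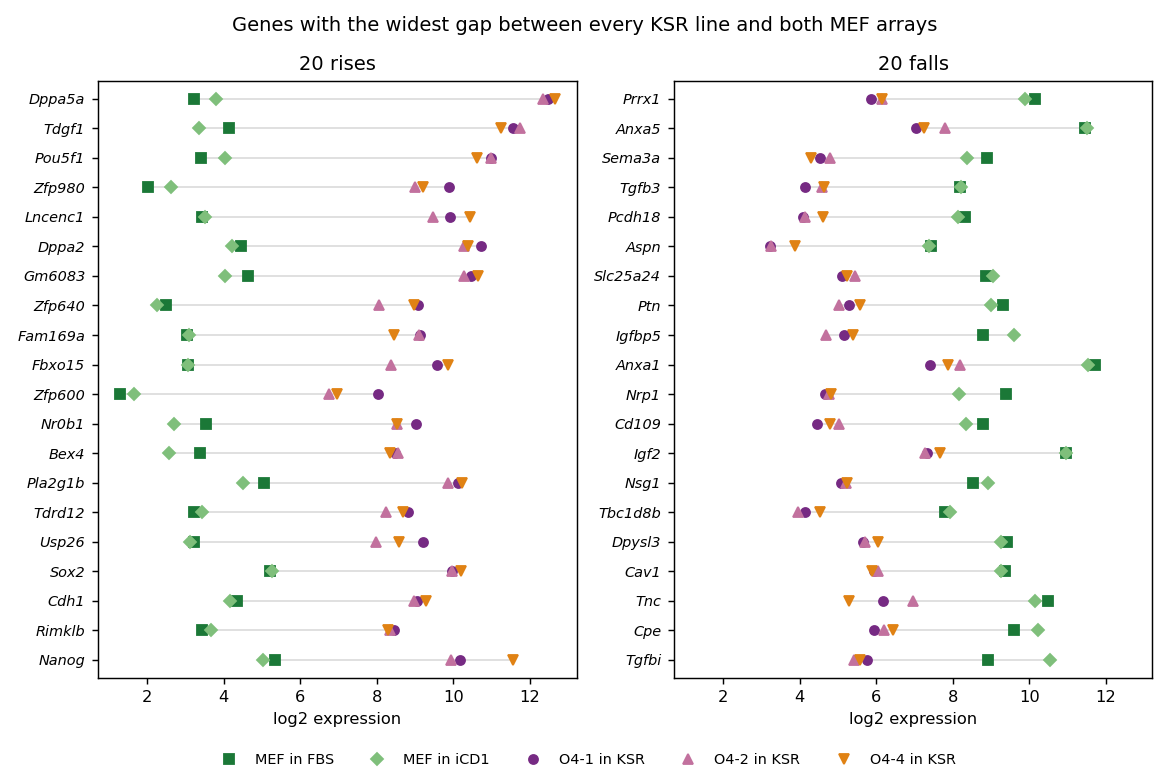
Log2 expression on each array (horizontal) for the 20 rises and the 20 falls, of genes called against each MEF array, that had the largest smallest difference between a KSR line and a MEF array. Squares and diamonds are MEFs in FBS and iCD1, and circles and triangles the 3 lines. No line overlaps a MEF array in any row, the closest rise being Nanog (gap 4.60) and the closest fall Tgfbi (gap -3.17).

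Most measured transcription factors of the pluripotent state rose. Of 30 factors 20 rose, 0 fell and 16 held, with a median difference of 2.35, against a median of 0.00 over all genes. Among all genes 12.1% rose (5.64% held) and 14.3% fell (7.02% held), shares to set beside this list and the later ones. Beside Pou5f1, the zinc finger gene Sall4 went from 4.33 and 4.05 to 8.88, 8.99 and 9.13, and Zscan10 from 4.35 and 4.70 to 8.36, 8.28 and 8.15. In both genes the lines agreed within 0.25. Mycn rose by 2.75 ± 0.19 and Mybl2, a cell cycle MYB factor gene, by 2.86 ± 0.13 (SE; limma, adjusted p = 0.0082 and 0.00659), and Etv5, an ETS factor gene of FGF signalling, also held. Mycn rose while Myc was at -0.77 ± 0.40 (limma, adjusted p = 0.262).

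Not every factor of the list passed. Klf2 rose by 1.46 ± 0.18 and held, Klf5 rose by 1.04 ± 0.20 and held against neither MEF array alone, and Klf4 was at 7.68 and 7.17 in MEFs and 8.15, 8.02 and 8.72 in the lines (limma, adjusted p = 0.0993). Prdm14, Otx2 and Tfcp2l1 were above both MEF arrays in every line and did not pass, with values in the lines from 4.50 to 6.85 for Otx2. Tcf3, Mycl and Rarg had differences of 0.12, 0.07 and -0.49 and did not pass either.

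Nanog is shown by its promoter because it holds the paired Oct and Sox element through which these factors are known to act on it. In RefSeq the 250 bases before a Nanog start lie at chr6:122707239-122707488 on the plus strand of GRCm38.p6, with the Oct element TTTGCAT, 1 further base and the Sox-type element ACAA in capitals, starting 75 bases before the start.
Nanog: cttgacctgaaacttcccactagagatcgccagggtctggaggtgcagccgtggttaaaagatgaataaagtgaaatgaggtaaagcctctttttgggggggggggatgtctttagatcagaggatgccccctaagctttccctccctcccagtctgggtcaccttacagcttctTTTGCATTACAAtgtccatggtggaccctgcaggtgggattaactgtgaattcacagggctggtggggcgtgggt
Nanog stood at 5.35 and 5.02 in MEFs and at 10.16, 9.94 and 11.55 in the lines, O4-4 being the highest, and rose by 5.37 ± 0.60 (SE; limma, adjusted p = 0.0135).

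Searched on both strands in windows from 250 bases before to 50 after each RefSeq start, TTTGCAT followed after any 1 base by ACAA was found for 7 of 15614 tested genes with a window (0.0448%). These were Nanog, Pipox, Astn1, Nrarp, Exoc1, Idua and Gm11149. Pipox, the gene of the peroxisomal enzyme that oxidises pipecolic acid and sarcosine, also held and rose by 3.03 ± 0.18 (SE; limma, adjusted p = 0.00756), and the other 5 were not called. TTTGCAT by itself, matches of the longer element included, was present for 752 genes (4.82%), for 38 of 882 higher genes that held (4.31%) and for 46 of 1091 lower genes that held (4.22%). Among genes that held with a difference of at least 2 it was present for 14 of 164 higher genes (8.54%) and 16 of 345 lower genes (4.64%). A match is a description of letters and not of a bound site. Windows of the genes that held carried more CpG dinucleotides than those of all genes, at medians of 22 and 20 for higher and lower genes against 15. The medians were 14.5 and 16 for higher and lower genes that held with a difference of at least 2. The 15 of the 20 leading rises with a window had a median of 7, and the 15 of the 20 leading falls with a window 10.5. The part of expression level in these counts was not tested.

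Neighbours in the genome rose along with some of these genes. In RefSeq order, and among the genes tested, Gdf3, Dppa3, Nanog and Slc2a3 follow each other, and all 4 rose and held, by 2.79, 2.76, 5.37 and 4.50. The next tested genes outside, Apobec1 and Foxj2, differed by 0.67 (limma, adjusted p = 0.0556) and fell by 1.07. Dppa4, Dppa2 and Morc1 also stand side by side and rose by 4.16, 6.13 and 4.03, between 6430553K19Rik and Trat1, which were not called. Pou5f1 rose between H2-Q10 and Tcf19, which were not called, at -0.03 and -0.68. These 3 places were chosen after the values were seen.

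Signalling genes of pluripotent cells were mixed. Among all genes 12.1% rose and 14.3% fell, and the falls of this list were near that share. Of 22 measured ligands, receptors and antagonists 8 rose (7 held) and 4 fell (2 held), with a median of 0.73, which was 1.15 without O4-4, where 10 rose. Fgf4, the FGF ligand gene of the early embryo, went from 5.44 and 5.32 to 8.21, 7.95 and 8.36, and Nodal from 4.91 and 5.15 to 7.91, 7.84 and 7.32. All lines were more than 2 units above the MEFs in both genes. The Nodal antagonist gene Lefty2 rose by 3.23 ± 0.42, and the receptor genes Erbb3 and Fzd5 by 1.58 ± 0.14 and 1.61 ± 0.21. Among the 4 that fell, Bmp4 went from 7.49 and 7.55 to 5.79, 5.46 and 4.93, Igf1r fell by 1.64 ± 0.13, and Il6st, the shared receptor chain of LIF and related cytokines, fell by 1.74 ± 0.33. Lifr did not pass, at 0.30 ± 0.33 (limma, adjusted p = 0.593).

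MicroRNA genes gave one cluster that rose together. MicroRNAs are short RNAs cut from longer precursors, and they bind messages chiefly through a seed at bases 2 to 8. The probe sets read precursors or host transcripts on an array made for longer RNA, so the values say nothing of the mature microRNA. Of 47 measured genes 6 rose (5 held) and 3 fell (2 held), with a median of 0.02. The share that rose was near the 12.1% of all genes, and the share that fell was below the 14.3% of all genes. With the arrays fitted as 2 groups 8 rose, and 13 without O4-4. All 6 rises were the host transcript Mir17hg and members of the Mir17 cluster that it carries. Their mature sequences from RefSeq (GRCm38.p6, chromosome 14, plus strand, between 115043684 and 115044380) are printed with the seed in capitals to show that these members have 3 seeds among them; Mir92-1 of the same cluster was not measured.
miR-17-5p: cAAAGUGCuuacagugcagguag
miR-20a-5p: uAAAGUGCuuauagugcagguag
miR-18a-5p: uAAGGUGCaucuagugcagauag
miR-19a-3p: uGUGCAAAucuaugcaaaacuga
miR-19b-3p: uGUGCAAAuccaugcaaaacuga
The pair miR-17-5p and miR-20a-5p shares a seed, as does the pair miR-19a-3p and miR-19b-3p.

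Mir17hg stood at 4.63 (FBS) and 3.57 (iCD1) in MEFs, and at 7.05, 7.01 and 6.41 in O4-1, O4-2 and O4-4. The rise of Mir17hg was 2.72 ± 0.26 (SE; limma, adjusted p = 0.0106), and O4-4 was the lowest line yet above both MEF arrays. Mir19a rose by 3.85 ± 0.36, Mir19b-1 by 3.42 ± 0.27, Mir20a by 3.23 ± 0.33 and Mir18 by 3.16 ± 0.30, and all 4 held. Mir17, at 3.92 and 3.11 against 6.47, 6.02 and 5.19, rose by 2.38 ± 0.45 and held against neither MEF array alone. In each of the 6 the FBS array was higher than the iCD1 array, by 0.80 to 1.33, and O4-4 was the lowest of the 3 lines.

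Members of the Mir302 and Mir106a clusters, known from pluripotent cells, were higher in the lines without passing. Their sequences are given because the seeds of miR-302b-3p and miR-302d-3p are those of the Mir17 family shifted by 1 base, while miR-106a-5p has the seed of miR-17-5p itself. They lie on chromosomes 3 (plus strand, 127545275 to 127545687) and X (minus strand, 52742541 to 52742563) of GRCm38.p6 in RefSeq.
miR-302b-3p: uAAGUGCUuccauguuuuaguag
miR-302d-3p: uAAGUGCUuccauguuugagugu
miR-106a-5p: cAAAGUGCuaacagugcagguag
Mir302b stood at 1.70 and 1.63 in MEFs and 4.48, 5.20 and 2.81 in the lines, a difference of 2.50 ± 0.83 (SE; limma, adjusted p = 0.12). Mir302a, Mir302c, Mir302d, Mir367, Mir106a and Mir363 differed by 1.12 to 1.93, with adjusted p from 0.0982 to 0.224 in limma. In all 7 genes the 3 lines lay above both MEF arrays, with O4-2 the highest and O4-4 the lowest line. Lines all above both MEF arrays, in whatever order, were found for 15 of the 47 measured genes of the list and for 25.6% of all genes. Mir20b and Mir92-2 of the Mir106a cluster were measured too and are not among the 7. In the other direction Dnm3os, the host transcript of microRNAs of mesenchymal tissue, went from 6.77 and 7.24 to 3.67, 4.25 and 4.16 and fell by 2.98 ± 0.23, Mir145a fell by 1.74 ± 0.17, and both held. Mir221 fell by 0.66 ± 0.08 and did not hold.

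**Figure D3:**
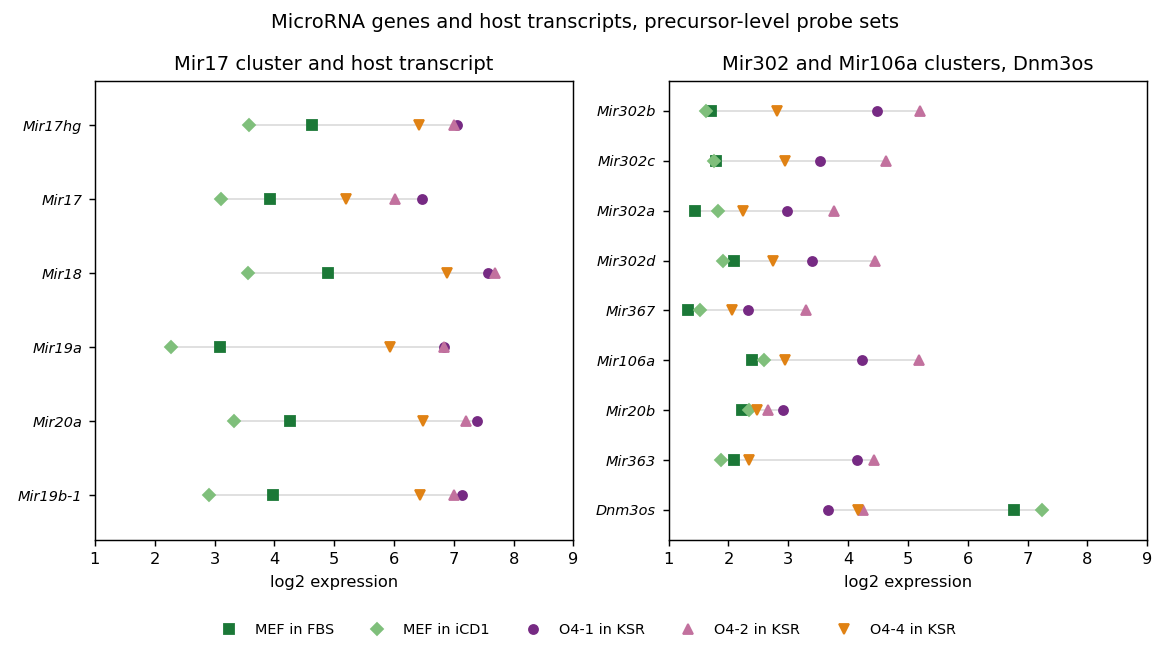
Log2 expression on each array (horizontal) of the Mir17 cluster genes and their host transcript (left) and of genes of the Mir302 and Mir106a clusters and Dnm3os (right). The Mir17 cluster is higher in every line than in both MEF arrays, and O4-4 is the lowest line for all genes on the left and for Mir302b, which it holds at 2.81 against 5.20 in O4-2.

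The transcription factors of mesenchyme fell. Of 39 measured factors 30 fell, 0 rose and 25 held, with a median of -1.74. Prrx2, the close relative of Prrx1, went from 8.24 and 8.55 to 4.97, 5.08 and 4.88, and the T-box factor gene Tbx15 from 7.73 and 7.95 to 4.41, 4.13 and 4.61. The lines lay more than 3 units below both MEF arrays in both genes. Among the factors known to drive the change from epithelium to mesenchyme, Snai2 fell by 3.26 ± 0.13, Zeb2 by 2.45 ± 0.12, Twist1 by 2.08 ± 0.12 and Snai1 by 1.55 ± 0.16, and these and Twist2 held. Zeb1 fell by 1.89 ± 0.31 and held against neither MEF array alone.

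The 4 nuclear factor I genes fell too, with Nfix going from 9.15 and 8.93 to 5.99, 6.13 and 6.41. Nfix, Nfia and Nfic held, while Nfib, at 6.12, 5.80 and 7.06 in the lines, did not. Among factors of the early serum response, Egr1 stood at 8.20 and 8.29 in MEFs and 7.10, 7.28 and 8.59 in the lines, O4-4 being above both MEF arrays, and Fos and Junb did not pass, at -1.22 ± 0.32 and -0.47 ± 0.12 (limma, adjusted p = 0.0746 and 0.0669).

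Growth factor and cytokine genes of fibroblasts fell on both sides of the signalling pair. Of 36 measured ligands and receptors 27 fell (20 held) and 1 rose, with a median of -2.11. Among the ligands, Wnt5a went from 8.42 and 8.58 to 5.30, 5.31 and 4.91, and Ptn from 9.32 and 9.0 to 5.29, 5.04 and 5.59. Both lay more than 3 units lower in every line. Hgf fell by 1.94 ± 0.08 and Gas6 by 1.77 ± 0.14, and Gas6 fell with the gene of its receptor Axl, which went from 9.10 and 8.40 to 5.37, 6.04 and 5.59.

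Among the receptors, Pdgfrb went from 9.06 and 8.37 to 5.07, 5.28 and 5.48, Osmr fell by 3.14 ± 0.16, Egfr by 2.88 ± 0.19, Tnfrsf1a by 2.81 ± 0.09 and Met by 2.50 ± 0.15, and all 5 held. Fgfr1 fell by 0.84 ± 0.11 without holding against the FBS array. The member that rose, without holding, was Mdk, midkine, at 6.36 and 7.01 against 7.60, 7.85 and 7.95 (1.12 ± 0.14; limma, adjusted p = 0.0171). Its relative Ptn moved the other way. The chemokine genes Ccl2 and Ccl7 did not pass, at 0.17 ± 0.10 and -0.08 ± 0.09, and each lay between the MEF arrays in all lines.

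Collagens and the enzymes that process them fell with few exceptions. Of 33 measured genes 30 fell (24 held) and 0 rose, with a median of -2.20. Col6a3 went from 8.72 and 10.45 to 5.97, 5.91 and 6.36, and Col5a2 from 9.14 and 9.02 to 5.56, 5.93 and 6.23. Serpinh1, the collagen chaperone HSP47, fell by 2.33 ± 0.09, the procollagen protease gene Bmp1 by 2.60 ± 0.15, and the crosslinking genes Lox, Loxl1, Loxl3 and Loxl4 by 2.20 to 2.57. All of these held.

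The fibrillar genes Col1a1 and Col3a1 fell but did not hold against the FBS array, at -3.04 ± 0.57 and -2.28 ± 0.61 (limma, adjusted p = 0.0513 and 0.0963), with O4-4 the highest line at 10.32 and 8.67. Col14a1, Plod2 and Col8a2 did not pass. The mean level of the list was 6.17, 6.25 and 6.43 in O4-1, O4-2 and O4-4 and 8.45 and 8.32 in MEFs.

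Of 25 elastic fibre and matrix glycoprotein genes 20 fell (17 held) and 0 rose, with a median of -2.62. Fbn2, fibrillin 2, went from 9.05 and 9.03 to 4.79, 4.95 and 5.99, and Has2, which makes hyaluronan, from 9.69 and 9.54 to 5.50, 6.51 and 5.55. Ltbp1, which stores latent TGF-beta in the matrix, fell by 3.54 ± 0.14 (SE; limma, adjusted p = 0.00659). Mfap5, Eln, Ltbp2, Fbln1 and Postn did not pass, Postn at 8.46 and 9.33 against 5.53, 4.94 and 6.92 (limma, adjusted p = 0.0515).

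Of 30 focal adhesion and caveola genes 24 fell (20 held) and 0 rose, with a median of -1.80. The caveola genes Cav1, Cav2, Cavin1, Cavin3 and Ehd2 fell by 2.09 to 3.43 and held, Cav1 from 9.36 and 9.27 to 5.95, 6.06 and 5.89. Itgb1, the common beta chain of integrins, fell by 2.23 ± 0.16, Itgav by 2.75 ± 0.12 and Itga5, the fibronectin receptor chain, by 1.75 ± 0.12, whereas Itga6, a laminin receptor chain, was at -0.06 ± 0.11 (limma, adjusted p = 0.772). Talin 1 (Tln1) fell by 1.53 ± 0.08, while Tln2 did not pass at 0.17 ± 0.09. The paxillin gene Pxn, at 7.18 and 7.19 against 6.79, 6.66 and 6.53, also missed the threshold.

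Epithelial junction genes moved the other way, though not as a whole. Of 33 measured genes 20 rose (13 held) and 0 fell, with a median of 1.11. Cdh1, E-cadherin, went from 4.35 and 4.17 to 9.04, 8.97 and 9.28, and Epcam from 3.76 and 4.37 to 8.62, 8.89 and 8.18. Every line was at least 3.8 units above both MEF arrays in these genes. Spint1 and Spint2, which encode inhibitors of membrane serine proteases, rose by 2.57 ± 0.09 and 3.27 ± 0.10, and the gene of their target protease St14 by 2.14 ± 0.18. The clathrin adaptor gene Ap1m2 of polarised cells rose by 2.75 ± 0.20.

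Among the claudins Cldn4 and Cldn7 rose and held, Cldn6 rose by 2.73 ± 0.56 without holding, and Cldn3 was at -0.07 ± 0.14. Desmoglein 2 (Dsg2) rose by 2.80 ± 0.37 and held, whereas Dsp, Jup, Dsc2 and Pkp3 of the same junction type did not pass. Tjp1 was at 8.44 and 8.20 in MEFs and 8.41, 8.42 and 8.41 in the lines. The gap junction gene Gja1 was below both MEF arrays in every line, at -1.89 ± 0.69 (limma, adjusted p = 0.143), with O4-4 lowest at 7.62.

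**Figure D4:**
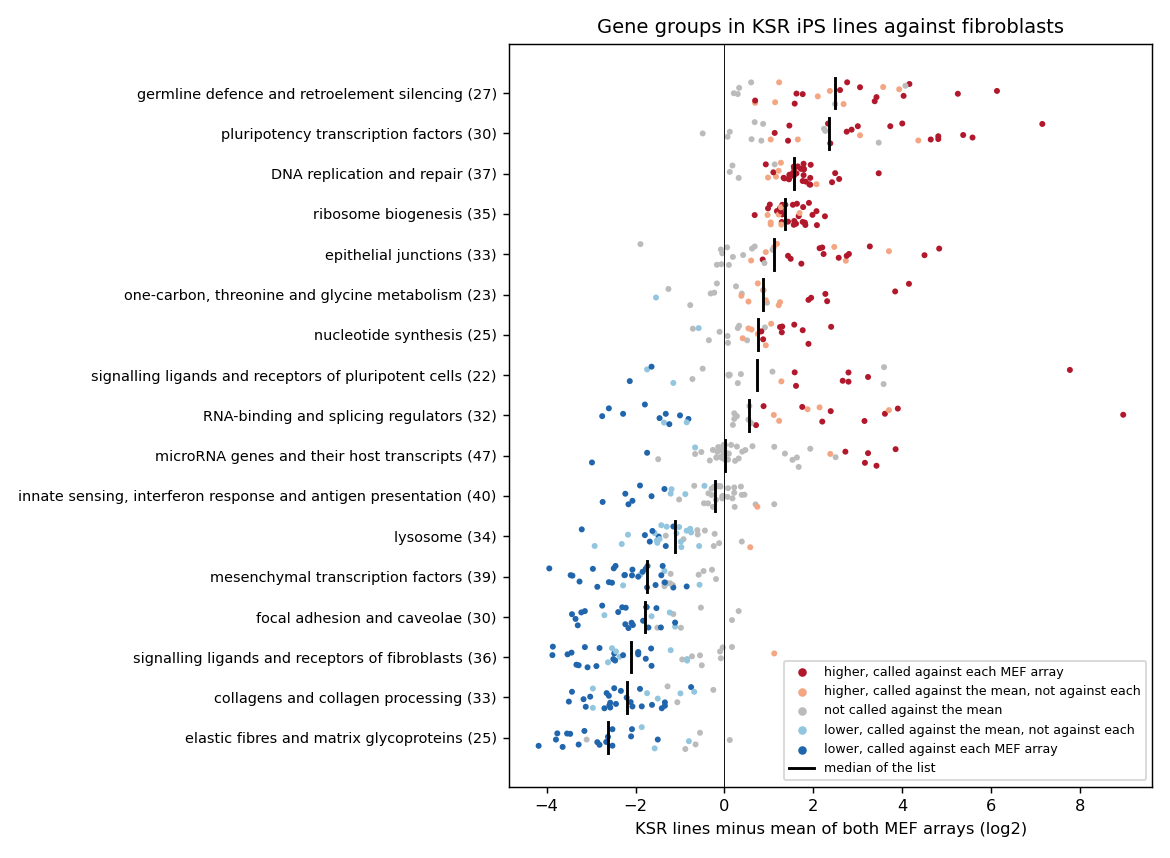
Each point is a measured member of a gene group, at its difference between the mean of the KSR lines and the mean of both MEF arrays (horizontal, log2), with the number of measured members beside the group and a black bar at the median. Dark red and dark blue mark genes called by limma against each MEF array, light colours those called against the mean but not against each, and grey those not called. All 35 ribosome biogenesis genes are called upward, and the elastic fibre list has the lowest median, -2.62.

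Pairs of genes from a family or a shared function differed in whether a switch was seen. In 18 measured pairs, a gene taken for the side of pluripotent cells was set against a relative or a gene of the same function. In 5 pairs the former rose and the latter fell, and both members held against each MEF array for Cdh1 with Cdh2 and Sox2 with Sox9. Esrp1 and Mbnl1 were paired as splicing regulators and not as relatives. The 5 pairs were Cdh1 and Cdh2 (4.83 and -3.12), Lmnb1 and Lmna (1.24 and -2.61), Sox2 and Sox9 (4.81 and -1.94), Fgf4 and Fgf7 (2.79 and -2.44) and Esrp1 and Mbnl1 (3.70 and -2.28), of which Lmnb1, Fgf7 and Esrp1 did not hold. In 6 pairs the latter fell and the former was not called, among them the BAF chromatin remodelling genes Smarca2 (-1.66) beside Smarca4 (-0.16) and Smarcc2 (-1.98) beside Smarcc1 (0.52), and the cyclin genes Ccnd2 (-3.07) beside Ccnd3 (0.02). In 4 pairs the former rose and the latter was not called: Tet1 (4.70) beside Tet3 (-0.31), Mycn beside Myc, Hk2 (1.73) beside Hk1 (0.11) and Slc2a3 (4.50) beside Slc2a1 (1.56). Both rose for Ezh2 with Ezh1 and Lin28a with Lin28b, and neither Cox7a2 nor Cox7a1 passed.

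RNA-binding and splicing regulators split in both directions. Of 32 measured genes 14 rose and 11 fell, and 9 held each way. Trim71, a ubiquitin ligase that represses messages, went from 5.53 and 5.46 to 9.16, 9.13 and 9.01, and L1td1, derived from a LINE-1 element, from 4.73 and 4.09 to 8.56, 8.36 and 8.0. Lin28a, which blocks the maturation of let-7, rose by 3.15 ± 0.41, with O4-4 lowest at 8.03. In all 3 genes every line was above both MEF arrays.

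The muscleblind genes, which favour splicing patterns of differentiated cells, all fell and held: Mbnl2 from 9.87 in MEFs in iCD1 to 7.32, 7.55 and 6.68, Mbnl1 by 2.28 ± 0.18 and Mbnl3 by 0.81 ± 0.08. Rbms3 fell by 2.60 ± 0.10 and Rbfox2 by 1.32 ± 0.12. The genes Zfp36, Zfp36l1 and Zfp36l2, whose products destabilise messages with AU-rich elements, fell by 0.85 to 1.24. Rbpms and Rbpms2 rose by 1.75 ± 0.12 and 2.39 ± 0.25, whereas Igf2bp3 was at 0.22 ± 0.14 beside its relative Igf2bp1, which rose by 2.20 ± 0.14.

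Genes of germline defence and retroelement silencing rose. Of 27 measured genes 21 rose (13 held), 0 fell, and all 27 had a positive difference, with a median of 2.49. Trim28, the corepressor that zinc finger repressors recruit, went from 9.48 and 9.70 to 11.27, 10.99 and 11.26, and Setdb1, its partner histone methyltransferase, rose by 1.14 ± 0.16. Hells, a remodelling helicase needed for DNA methylation, rose by 2.60 ± 0.20. Meiotic genes were among them: Tex11 went from 2.54 and 2.66 to 6.49, 5.92 and 5.65, Sycp3 from 2.19 and 2.40 to 6.15, 5.81 and 5.06, and Hormad1 rose by 3.05 ± 0.22.

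Mael, a piRNA pathway gene, stood at 7.72, 6.82 and 5.45 in the lines against 2.69 and 2.78 and rose, holding against neither MEF array alone. Dnmt3l and Dnmt3a did not pass and Dnmt3b did not hold, each with O4-4 lowest, at 5.54 for Dnmt3l against 9.16 in O4-1 and 8.99 in O4-2. The maintenance genes Dnmt1 and Uhrf1 rose by 0.69 ± 0.10 and 1.23 ± 0.18. Tdrkh, Tdrd1 and Tex101 did not pass, at 0.21, 0.33 and 0.30.

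Genes of ribosome production and DNA replication rose. All 35 ribosome biogenesis genes rose and 28 held, with a median of 1.37, which was 1.14 against MEFs in FBS and 1.63 against MEFs in iCD1. In the fit of 2 groups 35 rose, and 25, 30 and 30 without O4-1, O4-2 and O4-4. Polr1b, a subunit of RNA polymerase I, went from 7.37 and 6.88 to 9.55, 9.27 and 9.35, the nucleolar gene Heatr1 from 7.95 and 6.95 to 9.66, 9.37 and 9.51, and Dkc1, which guides RNA modification, rose by 1.98 ± 0.15. The rise was narrow in size, from 0.68 for Ubtf to 2.26 for Polr1b. The mean level of the list was 8.0 in MEFs in FBS, 7.44 in iCD1 and 9.13 to 9.28 in the lines.

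Of 37 replication and repair genes 33 rose and 28 held, with a median of 1.57. Rif1, which guards telomeres and replication timing, went from 6.32 and 5.93 to 9.88, 9.23 and 9.67, Orc1 rose by 2.58 ± 0.30, Msh6 by 2.49 ± 0.16 and Mcm10 by 2.42 ± 0.12. Pcna went from 9.55 and 9.52 to 10.92, 10.71 and 10.97. Xrcc3, Fancb and Gins2 did not pass, at 0.12, 0.18 and 0.32, and Mcm4 missed the threshold at 1.13 ± 0.25 (limma, adjusted p = 0.0516).

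Nucleotide synthesis genes rose in part. Of 25 nucleotide synthesis genes 15 rose (9 held) and 1, Ctps2, fell, with a median of 0.75. Ppat, the committed step of purine synthesis, went from 7.77 and 7.08 to 9.83, 9.60 and 10.03, and Gart, Pfas, Adsl, Paics and Atic rose by 0.83 to 1.89. Every line was above both MEF arrays in these 6 genes. Of the same route Adss and Impdh1 did not pass, at 0.30 ± 0.11 and -0.71 ± 0.24 (limma, adjusted p = 0.134 and 0.126). With the arrays fitted as 2 groups 14 genes of the list rose, and 9 without O4-1 or without O4-2. The ribonucleotide reductase genes Rrm1, Rrm2 and Rrm2b did not pass, at -0.35, 0.51 and -0.11, nor did Tk1 at 0.07.

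Of 23 genes of one-carbon, threonine and glycine metabolism 14 rose (6 held) and 1 fell, with a median of 0.87, which was 0.50 against MEFs in FBS and 1.12 against MEFs in iCD1. In the fit of 2 groups 12 rose, and 7 without O4-1. Genes of the glycine cleavage system were among the rises. Gldc went from 4.43 and 4.68 to 8.96, 8.67 and 8.48, and Amt from 4.36 and 4.50 to 8.23, 8.04 and 8.54, while Gcsh rose by 0.75 ± 0.14 and Dld did not pass at -0.31 ± 0.23. The cytosolic enzymes Shmt1 and Mthfd1 rose by 2.27 ± 0.12 and 1.95 ± 0.09 and held. The mitochondrial Mthfd2, at 8.15 in MEFs in FBS and 6.33 in iCD1 against 8.40, 8.64 and 8.42, did not hold. Aldh1l2 fell by 1.54 ± 0.16.

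Lysosomal genes fell, few of them against each MEF array. Of 34 measured genes 24 fell, 1 rose and 7 held, with a median of -1.12, which was -0.83 against the FBS array and -1.40 against the iCD1 array. In the fit of 2 groups 21 fell, 9 without O4-1 and 13 without O4-2. Lipa, the acid lipase gene, went from 7.83 and 9.43 to 4.93, 5.84 and 5.49, and Ctsd, cathepsin D, from 10.95 and 11.36 to 9.66, 9.71 and 9.65. Both held. Ctsb, cathepsin B, at 9.82 and 11.33 against 7.14, 7.59 and 8.24, fell by 2.92 ± 0.38 without holding against the FBS array. The member that rose was Tfeb, a master regulator of lysosomal genes, by 0.58 ± 0.11 (SE; limma, adjusted p = 0.0375), and it did not hold.

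Innate immune genes fell more often than they rose. Of 40 measured genes 11 fell (7 held), 1 rose and 28 were not called, with a median of -0.22. Among all genes 14.3% fell (7.02% held) and 12.1% rose. The receptor and adaptor genes Ifngr1, Ifngr2, Ifnar1, Ifnar2, Tlr4 and Myd88 fell by 1.19 to 2.23, Tlr4 from 4.97 and 5.48 to 3.18, 3.01 and 3.01. B2m, the light chain of class I molecules, went from 10.56 and 10.93 to 7.77, 7.67 and 8.57. The downstream regulators Stat2, Irf7, Irf9, Irf1 and Nlrc5 did not pass, with differences from -0.16 to 0.39. Bst2 rose by 0.74 ± 0.14 and held against neither MEF array alone. Oas1a varied among the lines, at 5.73, 3.86 and 6.26.

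Some genes passed against the MEFs of 1 medium only. Of the 1865 genes called against exactly 1 MEF array, 1788 had the same sign against the other, and at the median they kept 0.51 of their difference (genes called against FBS only) or 0.58 (genes called against iCD1 only). Called against FBS only were 181 higher and 263 lower genes, and against iCD1 only 627 higher and 796 lower. The difference between the MEF arrays, which is the test of whether the 2 comparisons differ, was called for 0 genes by limma, with 1798 at an unadjusted p under 0.05, and for 676 of the 1865 it was under 0.05 unadjusted.

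Genes lower in iCD1 than in FBS were led by Fgf7, a ligand gene of mesenchyme that acts on epithelium. It was at 9.35 (FBS) and 5.71 (iCD1) in the MEF arrays, with 5.04, 5.37 and 4.87 in the lines. Its fall was 4.26 ± 0.24 against FBS (limma, adjusted p = 0.0165) and its difference -0.62 ± 0.24 against iCD1 (adjusted p = 0.174). The contractile gene Actg2, the YAP and serum response target Ankrd1, the activin antagonist gene Fst, Anxa8, the chemokine gene Ppbp, the connexin gene Gjb2 and Coch were also called lower against FBS only. Their differences from the iCD1 array ran from -1.46 ± 0.30 for Ankrd1 (limma, adjusted p = 0.0526) to 0.46 ± 0.12 for Anxa8. Smoc1 and Wfdc6a differed from these: Smoc1 was at 6.52 in FBS, 4.24 in iCD1 and 6.71, 6.86 and 6.94 in the lines, and was called higher against iCD1 only.

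Genes high in iCD1 included matrix proteoglycans. Lum, lumican, was at 6.06 in FBS and 9.94 in iCD1, and its values in the lines, 5.94, 5.37 and 6.87, lay on both sides of the FBS array. Dcn, decorin, had the same shape, at 6.78 and 9.61 against 6.63, 6.99 and 7.54. Neither fibroblast marker was called against the mean. Stra6, the retinol uptake receptor gene, stood at 5.16 in FBS, 7.79 in iCD1 and 4.93, 4.91 and 4.98 in the lines. Cadps, Capn6, Acss3, Lix1, Cpm and Ccl8 were also called lower against iCD1 only. Apela, which encodes a peptide hormone of early embryos, was the exception, at 3.27 in FBS, 5.78 in iCD1 and 7.87, 7.98 and 6.84 in the lines, and was called higher against FBS only.

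The lines were not alike in every pluripotency gene. A difference of 2-fold or more between lines was found for 122 genes between O4-1 and O4-2, for 310 between O4-1 and O4-4 and for 564 between O4-2 and O4-4. Among genes above both or below both MEF arrays in all lines, 30 ranged over 2 log2 units or more, O4-4 being the line farthest from the median line in 25 of them, and 3 of the 30 were called. Calcoco2, an autophagy receptor gene, had the widest range, at 6.84, 5.63 and 9.71 in O4-1, O4-2 and O4-4 against 3.38 and 3.70 in MEFs.

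Kit, Tfcp2l1 and Crxos were also highest in O4-4, Kit at 7.48, 6.98 and 9.56. Lefty1, at 7.92, 9.15 and 5.86, Trh, at 8.28, 9.31 and 6.58, Slc27a2, a fatty acid transporter gene, at 7.90, 9.04 and 5.99, and Car4, at 6.65, 7.83 and 4.06, were lowest in O4-4. Car4 in O4-4 lay only 0.13 above the nearest MEF array. Nlrp4c was lowest in O4-2, at 4.42 against 6.81 and 6.97. None of these 9 genes nor Dnmt3l passed in limma, with adjusted p from 0.0586 to 0.285, and all were chosen for their spread among the lines.

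**Figure D5:**
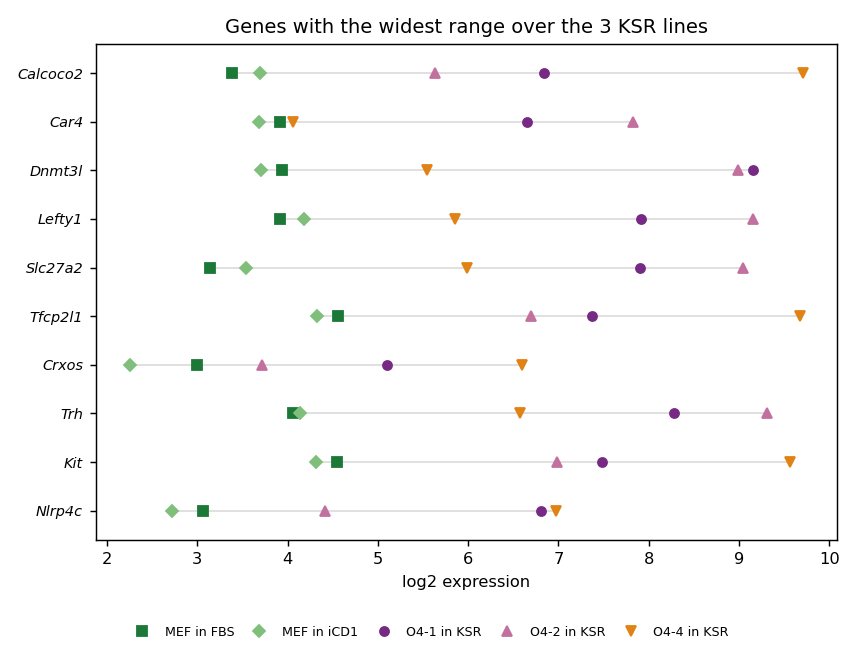
Log2 expression on each array (horizontal) of the 10 genes with the widest range over the 3 KSR lines among genes whose lines are all above or all below both MEF arrays. The downward orange triangle (O4-4) is the highest line in 5 genes and the lowest in 5, from 4.06 for Car4 to 9.71 for Calcoco2.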

How the data were processed

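Total RNA was extracted with Trizol and labelled with biotin from 100 ng by the Affymetrix whole-transcript assay, per the labels' protocols. Per the submitters' processing notes the authors used RMA and Partek, and the values they deposited are log2 expression levels, 1 per probe set and array. RMA draws the arrays to a common distribution, so a change of total RNA per cell would not show. The sources used here give no genome build, probe definitions or tool versions. The values were used as deposited. The array's annotation gave 1 symbol for 21789 of 28853 probe sets, several for 1621 and none for 5443, and 21698 matched a RefSeq gene.

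A linear model per gene (limma 3.58.1, R 4.3.3) was fitted to all 7 arrays as 5 groups, with two-sided tests, Benjamini-Hochberg adjustment over 19938 genes and a threshold of 0.05. The prior added 1.62 degrees of freedom at a prior SD of 0.13. Errors after differences are limma's standard errors. The script was tested on simulated data. Alternatives left out each line or MEF array, quantile normalized, filtered low values, averaged probe sets, used trend and robust settings, tested against a 2-fold change (treat) and fitted 2 groups over 5 arrays.

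Named genes were the 20 rises and 20 falls with the largest smallest difference over 6 pairs of a line and a MEF array, members of 27 lists (644 measured entries of 705) and 20 pairs, the 10 genes each way with the largest MEF difference among genes called against exactly 1 MEF array, and the 10 with the largest range over lines. Members and lists were chosen with earlier results of these data known, and counts within lists are descriptions. Sequences are RefSeq's.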

Additional observations from a re-analysis of the deposited data

Results flagged for a closer look

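Rras2, which encodes a small GTPase related to Ras, differed in opposite directions from the 2 fibroblast cultures. It stood at 8.85 in MEFs in FBS, 7.53 in MEFs in iCD1 and 8.22, 8.07 and 8.22 in lines O4-1, O4-2 and O4-4, so that all lines lay between the MEF arrays. Its difference was -0.68 ± 0.12 against FBS and 0.63 ± 0.12 against iCD1 (SE; limma, adjusted p = 0.0493 and 0.0476), and it was the gene among 19938 called against each array with opposite signs. The difference between the MEF arrays, at -1.31 ± 0.15, tests whether these comparisons differ and did not pass over all genes (limma, adjusted p = 0.435).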

How the results depend on the processing

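Genes higher and lower against the mean ranged from 0 to 1207 and from 0 to 1569 without a line, and both counts against each MEF array were 0 without any line, in a fit left with 1 residual degree of freedom; 5804, 6924 and 7424 genes had an unadjusted p under 0.05 without O4-1, O4-2 and O4-4. In the 2-group fit, added after the data were seen, the counts without a line were 1486 to 2263 higher and 1636 to 2372 lower. Without the iCD1 array the counts were 1306 and 1662, and without the FBS array 1752 and 2195. When limma's treat asked for more than a 2-fold change, 165 higher and 349 lower genes were left against the mean, 41 and 88 against FBS, 95 and 222 against iCD1, and 38 and 70 against each. Quantile normalization (2931 and 3004 against the mean), the low-value filter (2599 and 2483 of 9969 genes), averaged probe sets (2440 and 2855) and trend and robust settings (2729 and 3180) kept each of these counts over all genes within 1.5 times the one reported, the filter with more higher than lower genes. Among lists, muscle markers lower went from 2 to 4, 4 and 5 under quantile normalization, the filter and trend and robust settings, and keratinocyte markers lower from 0 to 1 under the last. The 40 leading genes reversed under none of these, and 2 lost their call under treat. All 40 lost their call without O4-1 and without O4-2, with differences 0.90 to 1.10 times the reported ones without a line. All 40 were called in the 2-group fit without each line. These genes were chosen from the same values for a wide gap in every line, so leaving out a line could not reverse them. Their calls are therefore no independent support. No paired analysis was possible because the labels pair no line with a MEF culture. No signal over background comes with the values, so low levels are not separated from background.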
